A study of Mus musculus with 12 samples.

Results

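Messenger RNA of 10 genes of the IL-6 cytokine family and its signaling path was examined in 3T3-L1 cells. These were the ligands Il6, Lif, Il11, and Clcf1, the receptor chains Il6ra, Il6st, Lifr, and Osmr, the transcription factor Stat3, and its inhibitor Socs3. They were chosen by symbol from a table of 56941 mouse genes, and all 10 were found and passed the filter on low counts that left 14810 genes for testing. 3T3-L1 is an established mouse embryonic fibroblast line, wild type by its labels. Bulk polyadenylated RNA was sequenced from 4 conditions with 3 libraries each. Cells were left untreated (control), given the type 2 cytokines IL-13 and IL-4 at 50 ng/mL each (IL-4/13), given an inflammatory cocktail that combined 0.5 ng/mL of IL-1β, 50 ng/mL of IL-17A, and 20 ng/mL of TNF-α (Inf), or given all 5 (IL-4/13 + Inf), in each case for 24 hours. The question was how type 2 cytokines, alone or on top of inflammation, change the messenger RNA of this family in fibroblasts. Protein, secretion, and STAT3 phosphorylation were not measured in these libraries.

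IL-6 family cytokines signal through the shared receptor chain gp130, encoded by Il6st. IL-6 and IL-11 first bind a ligand-specific chain and then draw gp130 into a signaling complex, whereas LIF and oncostatin M signal through gp130 paired with the chains encoded by Lifr or Osmr. The receptors activate Janus kinases, which phosphorylate STAT3, and STAT3 in turn induces Socs3, whose product binds gp130 and the kinases and shuts the signal down. Fibroblasts are known as a source of IL-6 and LIF in inflamed skin and joints.

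Total counts per library ranged from 13446005 to 20775769. Levels are given in CPM, read counts scaled by effective library size. Calls rest on edgeR's quasi-likelihood test with p adjusted by Benjamini-Hochberg over all tested genes (below 0.05), together with a log2 fold change of more than 0.25 in size, and "rose" or "fell" is used only of such genes. Because nothing in the sources says that the 3 libraries came from separate cultures, the p values measure the spread between libraries, which may be technical. In the fibroblast marker list, 9 of 10 genes passed the filter, and the summed level of the list was 14635 to 16689 CPM in control, 12643 to 13308 in IL-4/13, 12639 to 13657 in Inf, and 10625 to 10867 in IL-4/13 + Inf. Most of this sum came from Col1a1, Col1a2, Col3a1, and Vim. Some other genes of the list had higher means with Inf than in control: Dcn was at 1756 against 103 CPM, Lum at 22.4 against 2.25, Pdgfra at 384.5 against 196, and Pdgfrb at 481 against 269. Thy1 went the other way, with means of 497 CPM in control, 300 in Inf, and 255 in IL-4/13 + Inf. The preadipocyte gene Dlk1 was at 1552 to 1691 CPM in control, 1094 to 1142 in IL-4/13, 730.0 to 801 in Inf, and 723 to 799 with both. All 4 T cell markers, 4 of 6 adipocyte markers (Adipoq, Plin1, Cidec, and Lep), and Adgre1, Itgam, and Fcgr1 of 8 macrophage markers had 3 or fewer counts in every library. The other adipocyte markers had means in control and Inf of 11.3 and 30.1 CPM (Fabp4) and of 18.1 and 7.71 CPM (Pparg). The summed macrophage list was at 20.2 to 23.6 CPM in control and at 44.7 to 59.6 CPM in Inf, and its gene Cd14 accounted for means of 14.9 and 44.7 CPM of these. The part of these shifts in the results below was not tested, and in bulk RNA a change in the share of a cell state cannot be told apart from a change in RNA per cell.

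Inf raised most of the family. Of the 10 genes, 8 rose and 2 (Il11 and Clcf1) were not called against control, in a comparison where 31.6% of all tested genes were called with 16.3% upregulated and 15.3% downregulated. The median log2 fold change of the 10 genes was 1.07, beside 0.01 over all tested genes. IL-4/13 alone raised 4 genes (Lif, Il11, Il6ra, and Il6st), where 5.35% of all genes were called with 2.78% upregulated and 2.57% downregulated. Without IL-4/13 replicate 3, the count was 2, with Il11 and Il6ra not called. On top of Inf, IL-4/13 split the family: 3 genes rose further (Lif, Il6st, and Lifr), 3 fell (Clcf1, Osmr, and Stat3), and 4 were not called (Il6, Il11, Il6ra, and Socs3). Osmr was the 1 gene that fell in each refit without Inf replicate 1, Inf replicate 2, IL-4/13 + Inf replicate 1, or IL-4/13 + Inf replicate 2, where Clcf1 and Stat3 came under the log2 threshold. In that comparison 14.6% of all genes were called, 7.55% upregulated and 7.00% downregulated, and the median log2 fold change of the 10 genes was 0.19.

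**Figure D1:**
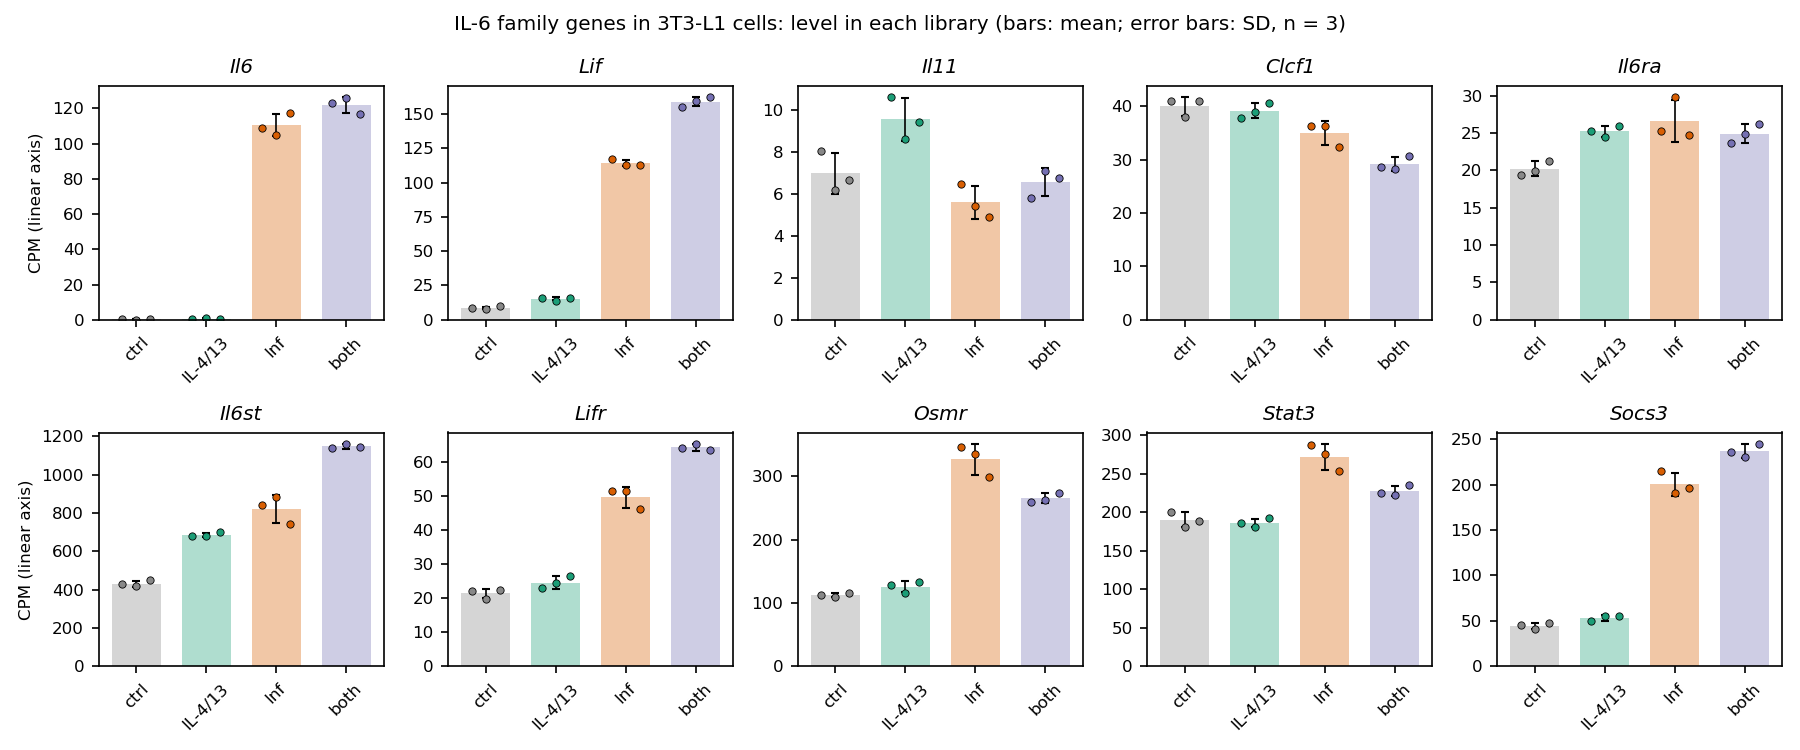
Level of each of the 10 genes in each library, in CPM on linear axes that start at 0, by condition (ctrl, control; both, IL-4/13 + Inf); points are libraries, bars are means, and error bars are SD (n = 3). Il6 and Lif are near the bottom of their panels without Inf and above 100 CPM in every library with Inf, and the highest bars of Osmr and Stat3 are those of Inf alone.

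Il6 (ENSMUSG00000025746, chromosome 5), the founding cytokine of the family, was close to the limit of detection without Inf and strongly induced by it. Its level was 0.514, 0.124, and 0.42 CPM in the 3 control libraries (9, 2, and 7 counts), 0.589, 0.972, and 0.441 in IL-4/13, 109, 105, and 117 in Inf, and 123, 126, and 117 in IL-4/13 + Inf. The libraries with Inf all stood far above those without it, whereas IL-4/13 + Inf overlapped Inf, and IL-4/13 overlapped control. The fold change was 302 for Inf against control (95% CI, 248 to 369.5; log2 8.24 ± 0.14 SE; edgeR's quasi-likelihood test, adjusted p = 1.31e-28). Adding IL-4/13 to Inf gave a log2 fold change of 0.14 (95% CI, 0.01 to 0.27; adjusted p = 0.107), so that a further rise of up to 1.21-fold lies within the interval. Without Inf, IL-4/13 gave 0.89 ± 0.41 on the log2 scale (adjusted p = 0.196), from 6 to 15 counts per library.

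Lif (ENSMUSG00000034394, chromosome 11), which encodes leukemia inhibitory factor, responded to both stimuli. It was at 8.40, 7.75, and 9.66 CPM in control, 16.0, 13.9, and 16.1 in IL-4/13, 117, 113, and 113 in Inf, and 155, 159, and 162 in IL-4/13 + Inf. The 4 conditions did not overlap, and the level climbed from control through IL-4/13 and Inf to the combination, with each neighboring pair called. Lif rose 1.78-fold with IL-4/13 alone (95% CI, 1.57 to 2.02; adjusted p = 6.15e-08), 13.3-fold with Inf (11.96 to 14.7; adjusted p = 3.78e-27), and 18.4-fold with both (16.7 to 20.4; adjusted p = 9.26e-29). Adding IL-4/13 to Inf raised it 1.39-fold (1.29 to 1.501; adjusted p = 6.93e-08).

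The 250 bases before the annotated starts of Il6 and Lif, the most strongly induced genes of the family, are shown with matches to the binding motifs of NF-κB and AP-1 in capitals. TNF-α and IL-1β are known activators of both factors. Sequences and coordinates are RefSeq's for GRCm38.p6, an older build than the GRCm39 named for these counts, and are read 5′ to 3′ on the gene's strand, the plus strand for both (chr5:30012864-30013113 and chr11:4257318-4257567).
Il6: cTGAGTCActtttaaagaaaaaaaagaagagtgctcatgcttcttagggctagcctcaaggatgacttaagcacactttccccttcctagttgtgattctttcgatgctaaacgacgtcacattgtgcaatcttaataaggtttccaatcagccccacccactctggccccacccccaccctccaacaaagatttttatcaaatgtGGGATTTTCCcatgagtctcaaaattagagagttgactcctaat
Lif: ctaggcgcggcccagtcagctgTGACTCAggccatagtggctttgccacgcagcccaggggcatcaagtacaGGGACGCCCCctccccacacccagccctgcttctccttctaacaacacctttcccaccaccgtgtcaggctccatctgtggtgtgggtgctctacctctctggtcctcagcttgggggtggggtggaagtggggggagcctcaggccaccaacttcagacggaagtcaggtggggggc
The first capitals in each are a match to the AP-1 motif TGANTCA, 249 to 243 bases before the start in Il6 and 228 to 222 in Lif. The second are a match to the NF-κB motif, 44 to 35 bases before the start in Il6 and 178 to 169 in Lif. Over all 32851 RefSeq promoter windows of this length, searched on both strands, 6.75% held the AP-1 motif and 7.25% held the NF-κB motif. The matches describe the sequence only, and binding was not tested. Of the 10 genes, 9 had a window, and Clcf1 is named only. Il11 has 2 windows, of which 1 held TGANTCA, 98 to 92 bases before its start.

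Il11 and Clcf1, the other ligands, did not follow Il6. Il11 (ENSMUSG00000004371, chromosome 7), which encodes interleukin 11, was at 8.06, 6.20, and 6.66 CPM in control, 10.6, 8.62, and 9.41 in IL-4/13, 6.45, 5.41, and 4.91 in Inf, and 5.80, 7.08, and 6.75 in IL-4/13 + Inf. Only IL-4/13 stood apart from control, and the other conditions overlapped control. The rise with IL-4/13 alone was 1.37-fold (95% CI, 1.12 to 1.68; adjusted p = 0.0427), and it was lost with DESeq2 (adjusted p = 0.0664). It was also lost when any 1 of 6 libraries was left out, namely control replicates 2 and 3, IL-4/13 replicates 1 and 3, and IL-4/13 + Inf replicates 2 and 3 (adjusted p from 0.0511 to 0.24). In GENCODE M21, 3.42% of the 50-base words of Il11 recur in other genes. Against IL-4/13, Il11 fell by 0.55 ± 0.14 on the log2 scale with IL-4/13 + Inf (adjusted p = 0.00283). With Inf it gave −0.33 ± 0.15 against control (adjusted p = 0.0821), which passed the thresholds without Inf replicate 1 (−0.43, adjusted p = 0.0381).

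Clcf1 (ENSMUSG00000040663, chromosome 19), which encodes cardiotrophin-like cytokine factor 1, was at 41.0, 38.0, and 40.9 CPM in control, 37.9, 38.9, and 40.6 in IL-4/13, 36.3, 36.3, and 32.4 in Inf, and 28.6, 28.3, and 30.6 in IL-4/13 + Inf. The libraries with both stimuli were below all others. Clcf1 fell by 0.46 ± 0.07 (log2 ± SE) with IL-4/13 + Inf against control (adjusted p = 4.33e-06) and by 0.27 ± 0.07 against Inf (adjusted p = 0.00654). The latter was close to the threshold and no longer passed it without Inf replicate 1, Inf replicate 2, IL-4/13 + Inf replicate 1, or IL-4/13 + Inf replicate 2 (−0.25 to −0.24). Another annotated gene on the same strand, AC109138.7, overlaps 8.17% of the exon bases of Clcf1 in GENCODE M21, so that reads could be split between them. Inf alone gave −0.19 ± 0.07 against control (adjusted p = 0.0268), under the log2 threshold, and was not called. The libraries of Inf lay below those of control, but 3 libraries per condition can also separate for genes with little change.

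Il6st (ENSMUSG00000021756, chromosome 13), the gene for the shared chain gp130, rose in every comparison with a stimulus. It was at 428, 416, and 448 CPM in control, 679, 677, and 698 in IL-4/13, 841, 881, and 741 in Inf, and 1137, 1161, and 1145 in IL-4/13 + Inf. The conditions did not overlap, and Inf replicate 3 was the lowest of its group. The rise was 1.59-fold with IL-4/13 (95% CI, 1.49 to 1.70; adjusted p = 1.50e-11), 1.91-fold with Inf (1.78 to 2.04; adjusted p = 5.63e-16), and 2.66-fold with both (2.49 to 2.85; adjusted p = 2.59e-20). IL-4/13 added to Inf raised it 1.40-fold (1.31 to 1.49; adjusted p = 5.16e-09).

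Lifr (ENSMUSG00000054263, chromosome 15), whose product pairs with gp130 to receive LIF, rose with Inf and again with IL-4/13 on top of it. Its level was 21.9, 19.8, and 22.4 CPM in control, 22.8, 24.4, and 26.4 in IL-4/13, 51.2, 51.2, and 46.0 in Inf, and 63.9, 65.3, and 63.4 in IL-4/13 + Inf. The libraries of IL-4/13 lay just above those of control, and the other conditions were well separated. The rise was 2.31-fold with Inf (95% CI, 2.08 to 2.56; adjusted p = 1.20e-14) and 3.00-fold with both (2.71 to 3.32; adjusted p = 9.21e-18). Against Inf, the rise with both was 1.30-fold (1.18 to 1.42; adjusted p = 7.56e-05), whereas IL-4/13 alone gave 1.14-fold against control (1.02 to 1.28; adjusted p = 0.144). Thus Lif and both chains of its receptor, Lifr and Il6st, were each higher with IL-4/13 + Inf than with Inf.

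Osmr (ENSMUSG00000022146, chromosome 15), whose product pairs with gp130 to receive oncostatin M, went the other way. It was at 112, 109.5, and 116 CPM in control, 129, 115, and 133 in IL-4/13, 346, 336, and 299 in Inf, and 259, 263, and 274 in IL-4/13 + Inf. Every library with both stimuli lay below every library with Inf alone and above every library without Inf. Osmr rose 2.90-fold with Inf (95% CI, 2.68 to 3.14; adjusted p = 1.18e-19) and 2.35-fold with both (2.18 to 2.54; adjusted p = 2.36e-17). Against Inf, IL-4/13 + Inf was 0.811-fold (0.752 to 0.873; adjusted p = 7.04e-05). Without Inf, IL-4/13 gave 0.16 ± 0.06 on the log2 scale (adjusted p = 0.0817).

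Il6ra (ENSMUSG00000027947, chromosome 3), the gene for the chain that binds IL-6 itself, moved less with Inf than the other receptor genes. Its level was 19.4, 19.97, and 21.3 CPM in control, 25.3, 24.5, and 25.9 in IL-4/13, 25.3, 29.8, and 24.7 in Inf, and 23.7, 24.8, and 26.2 in IL-4/13 + Inf. All 9 libraries with a stimulus lay above the control libraries, and the 3 stimulated conditions overlapped each other. The rise against control was 1.25-fold with IL-4/13 (adjusted p = 0.0165), 1.32-fold with Inf (adjusted p = 0.000281), and 1.23-fold with both (adjusted p = 0.00664). The rise with IL-4/13 alone no longer passed without control replicate 1 (adjusted p = 0.0916), IL-4/13 replicate 1 (0.0599), or IL-4/13 replicate 3 (0.0605). An antisense gene, Gm42809, covers 2.80% of its exon bases in GENCODE M21, and the strand setting of the counting is not given in the sources used here.

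Stat3 (ENSMUSG00000004040, chromosome 11), the transcription factor that the family's receptors activate, was, like Osmr, highest with Inf alone. It was at 201, 181, and 188 CPM in control, 186, 181, and 192 in IL-4/13, 287, 276, and 253 in Inf, and 225, 222, and 235 in IL-4/13 + Inf. Control and IL-4/13 overlapped, and IL-4/13 + Inf lay between control and Inf without overlap. Stat3 rose by 0.52 ± 0.05 (log2 ± SE) with Inf (adjusted p = 3.05e-10) and by 0.26 ± 0.05 with both (adjusted p = 7.70e-05), and it fell by 0.26 ± 0.05 when IL-4/13 was added to Inf (adjusted p = 0.000159). Both values of 0.26 were near the threshold of 0.25. The fall against Inf was −0.25 to −0.22 without Inf replicate 1, Inf replicate 2, IL-4/13 + Inf replicate 1, or IL-4/13 + Inf replicate 2, with adjusted p from 0.00101 to 0.00253, and the rise against control was 0.23 without control replicate 2 and 0.24 without IL-4/13 + Inf replicate 3. The opposite-strand neighbor Stat5a overlaps 0.756% of the exon bases of Stat3.

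Socs3 (ENSMUSG00000053113, chromosome 11), the feedback inhibitor of gp130 signaling, rose with Inf. It was at 45.7, 41.0, and 47.3 CPM in control, 49.3, 55.2, and 55.0 in IL-4/13, 215, 190.3, and 197 in Inf, and 236, 231, and 245 in IL-4/13 + Inf. The 4 conditions did not overlap and had the same order as those of Lif. The rise was 4.48-fold with Inf (95% CI, 4.12 to 4.88; adjusted p = 2.65e-23) and 5.31-fold with both (4.88 to 5.77; adjusted p = 1.25e-24). IL-4/13 gave nearly the same increment in both settings, 0.25 ± 0.06 without Inf (adjusted p = 0.0105) and 0.24 ± 0.05 with Inf (adjusted p = 0.000963) on the log2 scale. The difference between them had a 95% CI of −0.17 to 0.16. Both lay just under the log2 threshold of 0.25 and were therefore not called. The first passed it without control replicate 1, control replicate 3, or IL-4/13 replicate 1 (0.27 to 0.30), and the second without Inf replicate 1 (0.30) or IL-4/13 + Inf replicate 2 (0.26). The 250 bases before its start, on the minus strand (chr11:117969367-117969616, GRCm38.p6), are shown because they hold the only match to the STAT motif TTCNNNGAA among the windows of these genes.
Socs3: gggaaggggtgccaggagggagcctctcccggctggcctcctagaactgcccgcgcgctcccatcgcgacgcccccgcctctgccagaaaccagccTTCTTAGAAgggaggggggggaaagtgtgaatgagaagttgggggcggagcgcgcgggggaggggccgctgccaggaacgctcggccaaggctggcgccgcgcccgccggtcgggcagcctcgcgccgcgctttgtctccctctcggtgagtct
The capitals mark the match, 154 to 146 bases before the start. Of all 32851 windows, 7.02% held this motif, searched on both strands. The windows of Il6ra, Il6st, Lifr, Osmr, and Stat3 held none of the 3 motifs, which says only that these letters are not in those windows.

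**Figure D2:**
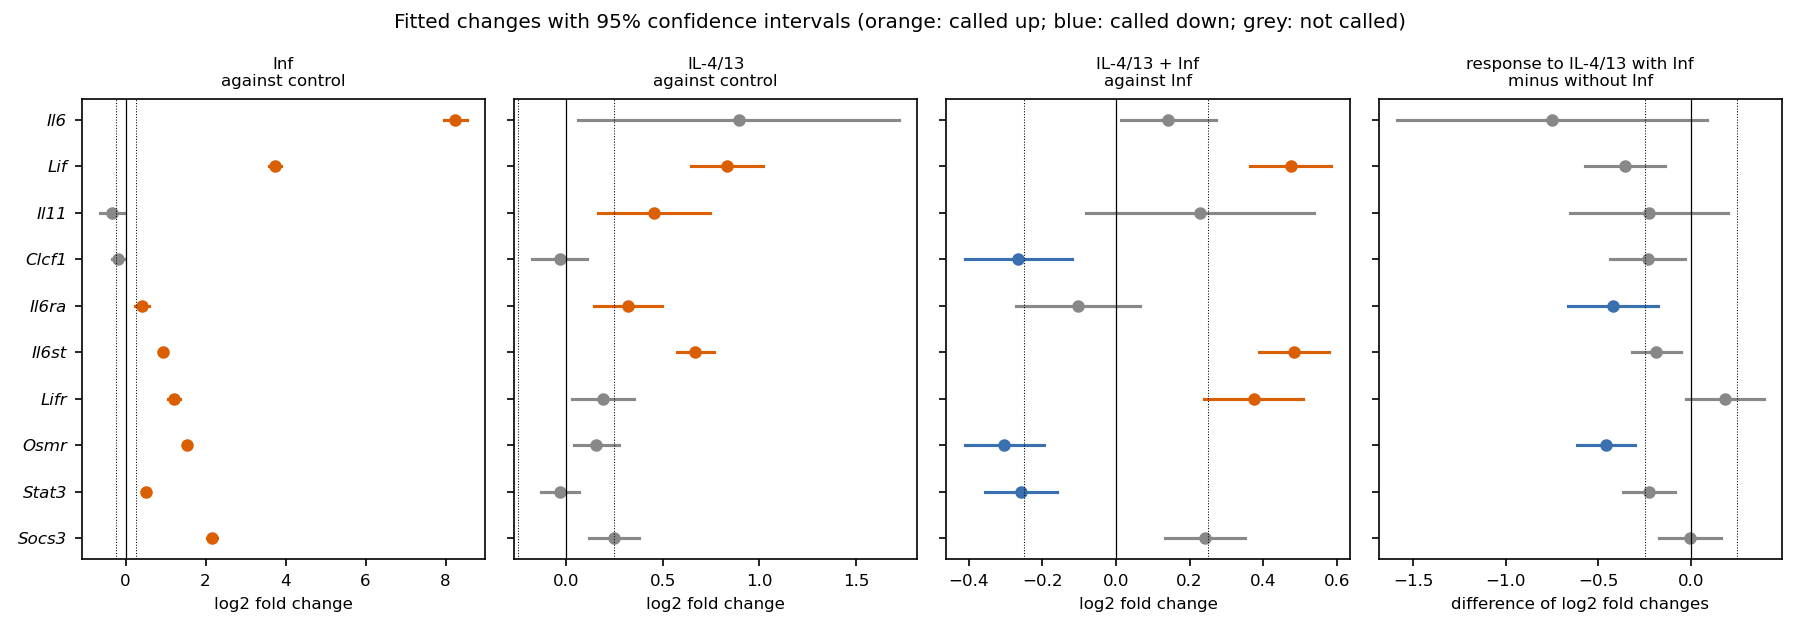
Fitted log2 fold changes of the 10 genes in 3 comparisons and, on the right, the difference between the responses to IL-4/13 with and without Inf; points are estimates, lines are 95% confidence intervals, dotted lines are the threshold of 0.25, and each panel has its own horizontal scale. With Inf present, Lif, Il6st, and Lifr lie to the right of the threshold and Clcf1, Osmr, and Stat3 to the left, and only Osmr and Il6ra are called in the right panel.

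IL-4/13 + Inf was also compared with the conditions that lack Inf. Against control, 8 genes rose and Clcf1 fell, where 24.9% of all genes were called, 13.4% upregulated and 11.5% downregulated. Against IL-4/13, 7 genes rose, Il11 and Clcf1 fell, and Il6ra was not called (−0.02 ± 0.08, adjusted p = 0.889), where 24.3% of all genes were called, 13.3% upregulated and 11.0% downregulated. A comparison of Inf with IL-4/13, added after the data were seen to order neighboring levels, gave 7 genes higher with Inf, Il11 lower, and Clcf1 and Il6ra not called, where 37.5% of all genes were called, 19.5% upregulated and 18.0% downregulated. The call of Il6st there (0.26) was lost without Inf replicate 1 (0.25) or Inf replicate 2 (0.21). These comparisons share libraries with those above, so that they are not separate evidence.

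An interaction term, the log2 response to IL-4/13 with Inf minus that without it, compared the responses directly. It was called for 2 of the 10 genes, Osmr and Il6ra, both lower with Inf, where 3.11% of all genes were called, 1.59% lower and 1.52% higher. For Osmr the response was 0.16 without Inf and −0.30 with it, a difference of −0.46 ± 0.08 (adjusted p = 0.000299). This call held in all 17 alternative fits, with differences of −0.52 to −0.41 over those that left out 1 library. For Il6ra the response was 0.32 without Inf and −0.10 with it, a difference of −0.42 ± 0.12 (adjusted p = 0.0441). The call for Il6ra was lost in 10 of 17 alternative fits, DESeq2 among them (adjusted p = 0.0596). The 8 libraries whose omission ended it were control replicates 1 and 2, all 3 of IL-4/13, Inf replicate 2, and IL-4/13 + Inf replicates 1 and 2, and adjusted p over all 12 omissions ranged from 0.0149 to 0.153. Lif, Stat3, and Il6st had differences of −0.36 ± 0.11 (adjusted p = 0.0555), −0.23 ± 0.07 (adjusted p = 0.0653), and −0.19 ± 0.07 (adjusted p = 0.135). Without Inf replicate 3, which differed most from the others of its condition, 4 genes were called, with Lif at −0.36 (adjusted p = 0.0385) and Stat3 at −0.27 (adjusted p = 0.00441). Lif was also called without control replicate 3 (adjusted p = 0.0237) or IL-4/13 replicate 2 (adjusted p = 0.0256), and Stat3 without control replicate 1 (adjusted p = 0.0385). Il6st was called in none of the 12 omissions. Its difference was −0.248 to −0.132 over them, under the log2 threshold of 0.25 in size, with adjusted p from 0.000953 to 0.318. The other members had adjusted p from 0.254 to 0.989.

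For Il6, Lif, Il6st, and Socs3 the estimates of this difference had opposite signs on the log2 and CPM scales. None of these differences was called on the log2 scale. For Socs3 the log2 difference was −0.004 and its sign turned in 5 of 17 alternative fits, so that it had no settled sign to reverse. In CPM, IL-4/13 added a mean of 6.72 CPM of Lif without Inf and 44.6 CPM with Inf, so that the increment was larger with Inf in CPM and smaller with Inf on the log2 scale. For Il6st the increments were 254 and 327 CPM, and for Socs3 they were 8.49 and 36.7 CPM. For Osmr the increments were 13.0 and −61.8 CPM, and for Il6ra, whose response with Inf was not called, they were 5.003 and −1.69 CPM, so that for these 2 genes the difference had the same sign on both scales. In an exact two-sided permutation of the IL-4/13 labels within each level of Inf (400 relabelings, smallest possible p = 0.005, 10 genes tested, p not adjusted), p was 0.01 for Osmr, 0.025 for Il6ra, 0.1 for Lif and for Lifr, and 0.085 for Stat3. By the same test, p was 0.14 for Clcf1, 0.15 for Socs3, 0.195 for Il6, 0.315 for Il11, and 0.63 for Il6st. The test presumes no response to IL-4/13 at either level. Where both responses have the same sign, as for Lif and Lifr, p cannot reach 0.005, however large the difference. The test therefore cannot decide whether the responses differ.

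Levels of different genes were compared only per kilobase of exon, with lengths from GENCODE M21. Without Inf, Clcf1 was the most abundant ligand messenger, with 10.5 ± 0.458 CPM per kilobase in control (SD, n = 3), and Il6 the least, with 0.145 ± 0.0839. With Inf, Il6 led with 45.5 ± 2.60, ahead of Lif with 26.3 ± 0.576, Clcf1 with 9.20 ± 0.584, and Il11 with 2.69 ± 0.377. The ratio of Il6 to Lif per kilobase was 1.73 with Inf (range over libraries, 1.66 to 1.87) and 1.37 with IL-4/13 + Inf (1.29 to 1.42). These ranges did not overlap.

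Among receptors, Il6st was the most abundant in every condition. Per kilobase it exceeded Il6ra 16.6-fold in control (range over libraries, 16.2 to 17.2), 21.1-fold in IL-4/13 (20.9 to 21.5), 24.03-fold in Inf (23.0 to 25.9), and 35.9-fold in IL-4/13 + Inf (34.0 to 37.4). Osmr was second in every condition. Its ratio to Lifr per kilobase was 4.68 in control (4.55 to 4.91), 5.88 in Inf (5.79 to 6.01), and 3.67 in IL-4/13 + Inf (3.58 to 3.85). The ranges with Inf and with IL-4/13 + Inf lay on opposite sides of that in control. Lifr was below Il6ra in control and IL-4/13 and above it with Inf. The orders of ligands and of receptors were the same with the longest transcript as length, although the ratio of Osmr to Lifr was then 9.26 in control, 11.6 in Inf, and 7.26 in IL-4/13 + Inf, because the exon union of Osmr is 12113 bases and its longest transcript 5491.

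**Figure D3:**
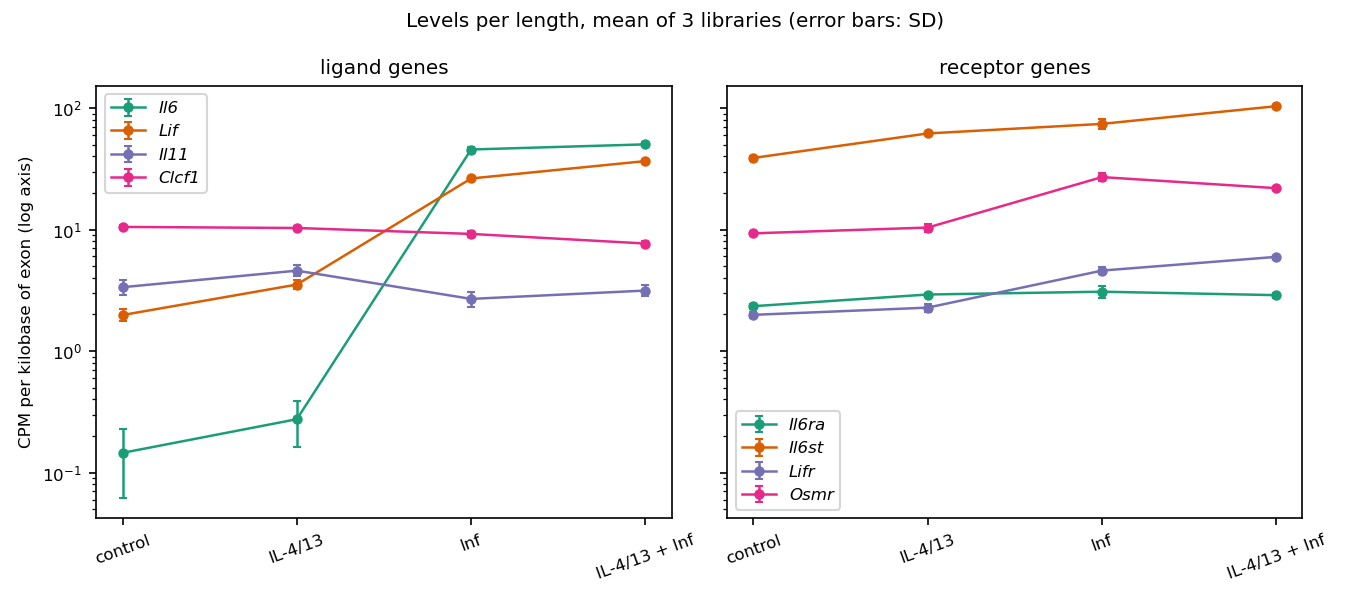
Mean level per kilobase of exon for the ligand genes (left) and receptor genes (right) in the 4 conditions, in CPM per kilobase on a log axis; error bars are SD over 3 libraries. Il6 crosses from the lowest ligand in control (0.145) to the highest in Inf (45.5), and Il6st stays on top of the receptors throughout.

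For the rest of the pathway, 76 genes in 8 lists were examined, of which 61 were tested. The lists were drawn up from general knowledge with earlier results of these data known. Over all lists, 5 of the 61 rose and 3 fell with IL-4/13 alone, where 2.78% of all tested genes rose and 2.57% fell. With Inf, 28 rose and 5 fell (16.3% and 15.3% of all tested genes), and with IL-4/13 on top of Inf, 7 rose and 14 fell (7.55% and 7.00%). The interaction was called for 2 genes that were higher and 3 that were lower with Inf, where 3.11% of all tested genes were called. Among 8 other ligands, 2 were tested, and Osm, Il27, and Il31 had 3 or fewer counts in every library, so that the ligand of Osmr stayed at or under the level that 3 counts give. Ctf1, the gene for cardiotrophin 1, rose by 0.42 ± 0.14 with Inf.

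Of 5 other receptor chains, 2 were tested and Il27ra had 3 or fewer counts in every library. Il11ra1, the gene for the chain that binds IL-11, fell with IL-4/13 whether Inf was absent (−0.26 ± 0.07, adjusted p = 0.0119) or present (−0.28 ± 0.07, adjusted p = 0.00258). Il31ra, which pairs with the OSMR chain to receive IL-31, was low, with 0.400 to 1.18 CPM in control, 1.62 to 2.33 in IL-4/13, and 0.0606 to 0.146 in Inf (1 to 3 counts per library). It rose with IL-4/13 alone (log2 1.496 ± 0.38, adjusted p = 0.00931) and fell with Inf. Of the receptor-cleaving proteases, Adam17 rose by 0.69 ± 0.05 with Inf and Adam10 was not called.

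Over all tested genes, 16.3% rose with Inf, and 7.55% rose and 7.00% fell with IL-4/13 on top of Inf. All 9 kinases and adaptors were tested. With Inf, 3 rose, among them Jak2, a kinase bound to gp130, from 42.4 to 45.7 CPM in control to 142 to 166 CPM in Inf (log2 1.82 ± 0.06, adjusted p = 6.96e-22), and Tyk2 (0.27) and Shc1 (0.26) by less. When IL-4/13 was added, the adaptor Gab1 rose (0.50 ± 0.08, adjusted p = 1.97e-05) and the adaptor Shc1 fell (−0.38 ± 0.04, adjusted p = 2.51e-08), and the median of the 9 was 0.08. Gab1 was at 23.8 to 30.4, 24.7 to 26.2, and 24.3 to 26.8 CPM in control, IL-4/13, and Inf, and at 35.6 to 37.2 CPM with both. Its interaction was called (0.59 ± 0.12, adjusted p = 0.00153). Of the other STAT genes, 5 of 6 were tested, Stat4 was at 3 or fewer counts, and Stat2 (0.67) and Stat5a (1.24) were among those that rose with Inf. Stat6, the factor that IL-4 and IL-13 activate, was not called in any comparison, and no gene of this list was called when IL-4/13 was added to Inf.

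Among 14 negative regulators, every gene called with IL-4/13, alone or on top of Inf, belonged to the SOCS family. This family makes up a large part of the list, and its called genes did not all move in the same direction. Cish was at 1.80 to 3.78 CPM in control, 9.97 to 12.9 in IL-4/13, 5.33 to 6.85 in Inf, and 32.3 to 33.1 in IL-4/13 + Inf. It rose by 2.16 ± 0.17 with IL-4/13 alone (adjusted p = 4.76e-10) and by 2.43 ± 0.13 with IL-4/13 on top of Inf (adjusted p = 1.15e-13). Socs1, an inhibitor of the Janus kinases, rose by 1.09 ± 0.09 and 0.89 ± 0.08 in the same comparisons, Socs5 rose by 0.26 ± 0.05 in the second, and Socs2 fell by 0.62 ± 0.14 and 0.75 ± 0.14. Inf raised Cish (1.198) and Socs1 (0.57) and lowered Socs4 (−0.29) and Socs6 (−0.39). Thus 3 of 14 rose and 1 fell with IL-4/13 + Inf against Inf, with a list median of 0.05, where 7.55% of all tested genes rose and 7.00% fell.

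Of 7 regulators of Il6 messenger RNA, 3 rose with Inf: Zc3h12a (4.22 ± 0.07), whose product Regnase-1 degrades Il6 mRNA, Nfkbiz (2.99 ± 0.08), whose product IκBζ aids Il6 transcription, and Zfp36 (0.37 ± 0.09). With Inf, 16.3% of all tested genes rose. When IL-4/13 was added, Nfkbiz was the only gene of the list that was called, where 14.6% of all tested genes were called. It was at 30.1 to 35.9 CPM in control, 257 to 288 in Inf, and 187 to 212 in IL-4/13 + Inf, and it fell by 0.43 ± 0.07 (adjusted p = 0.000187).

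Of 25 genes listed as known STAT3 targets, many of which are also targets of NF-κB or C/EBP factors, 20 were tested, and Lrg1, Fga, Fgb, Fgg, and Icam1 had 3 or fewer counts in every library. With Inf, 15 rose and Ccnd1 fell, where 16.3% of all tested genes rose and 15.3% fell. The list median was 1.04 on the log2 scale, beside 0.01 over all tested genes (1.04 also with Lbp and Batf, which had 3 or fewer counts in every control library, at their lower bounds). The largest changes were those of the acute-phase genes Saa3, Lcn2, and Hp and of Steap4. The control libraries had 0.120 to 0.400 CPM of Saa3, and those of Inf had 4829 to 5628. Lcn2 was below 1 CPM in every control library and at 1193 to 1290 CPM in Inf, and Hp was at 0.248 to 0.360 and 280.4 to 331 CPM. For Steap4 the ranges were 0.343 to 0.720 and 38.8 to 41.9 CPM.

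With IL-4/13 on top of Inf, 9 of the 20 fell and 3 rose, with a list median of −0.24, beside −0.01 over all tested genes, of which 7.00% fell and 7.55% rose. The acute-phase genes Lbp (−2.77 ± 0.31), Saa3 (−1.15 ± 0.09), and Hp (−1.14 ± 0.07) fell most, followed by the transcription factor genes Cebpb (−0.53 ± 0.09) and Cebpd (−0.50 ± 0.09), Lcn2 (−0.42 ± 0.05), the kinase gene Pim1 (−0.40 ± 0.13), Hif1a (−0.39 ± 0.04), and Bcl3 (−0.34 ± 0.07). Ccnd1, the gene for cyclin D1 (0.49 ± 0.04), the protease inhibitor gene Timp1 (0.42 ± 0.04), and Myc (0.31 ± 0.05) rose. The interaction was called for Bcl3 (−0.98 ± 0.11, adjusted p = 3.98e-07), Il4ra (−0.33 ± 0.08, adjusted p = 0.0165), Lbp (−3.55 ± 0.98, adjusted p = 0.0407, on 0 to 3 counts per control library), and Ccnd1 (0.45 ± 0.06, adjusted p = 1.98e-05). Socs3, itself a STAT3 target and not on this list, was on the other side of 0 from most of it in the same comparison (0.24). The share of STAT3 in these changes was not tested.

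**Figure D4:**
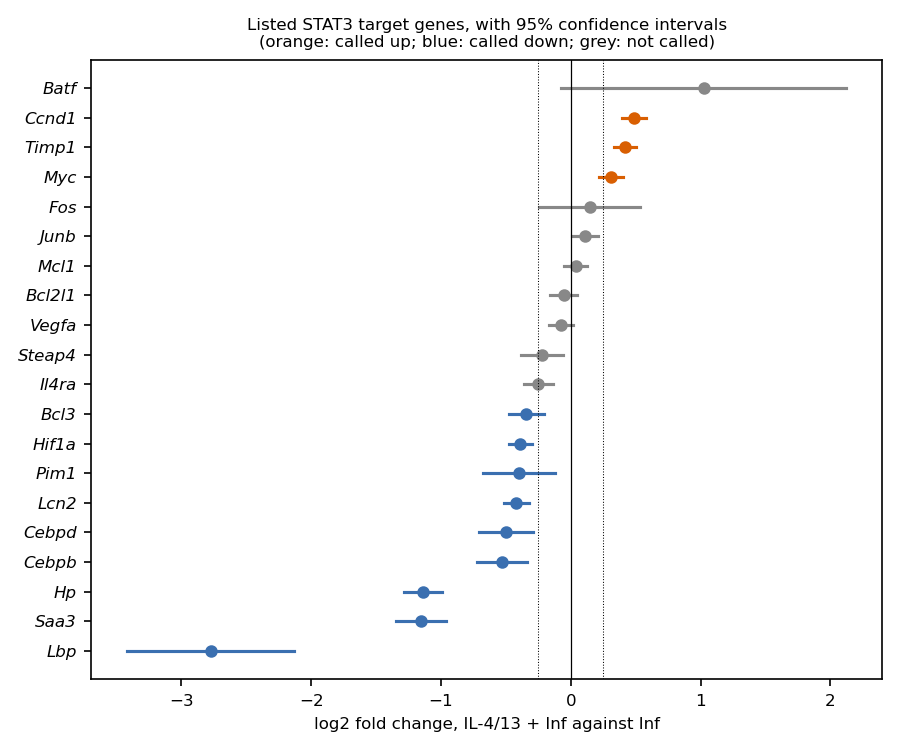
Log2 fold change of the 20 tested genes listed as STAT3 targets, IL-4/13 + Inf against Inf; points are estimates, lines are 95% confidence intervals, and dotted lines are the threshold of 0.25. From Lbp (−2.77) at the bottom to Ccnd1 (0.49) near the top, 9 genes are called down and 3 up, and Batf, at the top, has the widest interval above 0.

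The genes whose pattern was most like that of each member were found by the smallest root mean square difference of log2 CPM, each gene centered on its own mean, over the 12 libraries. For Il6 these were Cxcl1 (0.39), Cxcl5 (0.42), and Csf2 (0.54), and Il6 itself varied by 3.86 around its mean on this scale. For Lif they were Enpp2 (0.21), Mtmr7 (0.26), and Pdgfrl (0.28), against its own 1.81. Il6st was nearest to Krt80, Pcdh1, and Tlr4 (0.13 to 0.14), Lifr to Tnfrsf1b, Itpripl2, and Cd47 (0.10 to 0.11), Osmr to Foxo3, Rab11fip1, and Mapkapk2 (0.07 to 0.10), Stat3 to Nbr1, App, and Vrk3 (0.05 each), and Socs3 to Dcxr, Rgs16, and Slc11a2 (0.16 to 0.18). Within the family, the smallest difference was that of Il6ra and Stat3 (0.19), both of which varied little, followed by Lifr and Osmr (0.25).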

How the data were processed

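The authors prepared stranded, polyadenylated RNA libraries and deposited raw counts per gene for 12 libraries. The submitters' processing notes name STAR, featureCounts, and GRCm39. Versions, annotation, and the strand setting are not given in the sources used here. From the deposited counts, edgeR 4.0.16 in R 4.3.3 removed low genes (filterByExpr by condition, minimum count 10, minimum total 15), scaled by TMM, and fitted 1 robust quasi-likelihood model to all 12 libraries. The call thresholds (0.05 and 0.25) are those of the study's pseudobulk comparisons. The study names DESeq2, which served as an alternative (1.42.0), as did its size factors, no filter, a mean of at least 50 counts, fits of the compared groups only, a replicate block, other thresholds, and leaving out each library. The 10 genes and the pathway lists were chosen with earlier results of these data known. From a list, the text names genes called with IL-4/13 + Inf against Inf or in the interaction, the 4 largest called changes with Inf, and genes with 3 or fewer counts in every library; Stat6 and Adam10 were named after their values were seen. Some listed genes are not reported here. Log2 CPM had a prior count of 2. Replicates of a condition differed beyond sampling noise in every pair. The model was also run on simulated counts with log2 changes of 1 in size, and the outcome is not reported here. Smaller changes were not simulated. Doses and time come from the study's text, not from the labels. Precision is set by 3 libraries per condition.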

Additional observations from a re-analysis of the deposited data

Results flagged for a closer look

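For 2 genes the response to IL-4/13 with Inf differed from that without Inf by the interaction term of the fit. Osmr had a difference of −0.46 on the log2 scale, from means of 113 CPM in control and 126 in IL-4/13 to 327 in Inf and 265 in IL-4/13 + Inf. Il6ra had a difference of −0.42, from 20.2 and 25.2 CPM to 26.6 and 24.9 CPM. For Il6ra, Inf replicate 2 was the highest library (29.8 CPM), and leaving it out gave a difference of −0.33 (adjusted p = 0.153).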

How the results depend on the processing

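Of 60 results (10 genes in 6 comparisons), 45 kept their direction and their side of the thresholds in every refit, and 15 did not. With a log2 threshold of 1, the calls were 0 for IL-4/13 against control, 5 for Inf against control, 0 for IL-4/13 + Inf against Inf, 5 for IL-4/13 + Inf against IL-4/13, and 0 for the interaction, which follows from the threshold itself. The interaction gave 1 call with DESeq2 and 1 with a replicate block, where the call of Il6ra was lost (adjusted p = 0.0640). The block also ended the call of Il11 with IL-4/13 (adjusted p = 0.0542) and changed no other call. Libraries of the same number did not deviate together: the correlation of their deviations was −0.15 to 0.05 over 18 pairs, and 0 of 12 libraries were closest to their own number. Leaving out 1 library gave 2 to 4 calls for IL-4/13 against control and 1 to 4 for the interaction. Signs turned when 1 library was left out for 5 values that were not called: Stat3 with IL-4/13 against control (−0.062 to 0.013), Il11 with IL-4/13 + Inf against control (−0.17 to 0.026), Il6ra with IL-4/13 + Inf against IL-4/13 (−0.051 to 0.021) and with Inf against IL-4/13 (−0.0087 to 0.14), and the interaction of Socs3 (−0.062 to 0.054). On the CPM scale the interaction had the opposite sign to that on the log2 scale for Il6 (11.004 CPM), Lif (37.9 CPM), Il6st (72.6 CPM), and Socs3 (28.2 CPM), none of which was called on the log2 scale. Il6 had 2 to 9 counts per control library, which limits the precision of its fold changes against control.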
